A study of Rattus norvegicus with 8 samples.

Results

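Erythroid cells were cells with a transcriptome dominated by hemoglobin. Among the cells of the rat spinal cord with at most 10% of their unique molecular identifiers (UMIs, tags that mark single RNA molecules) on mitochondrial genes and at least 500 UMIs, they were those in which symbols starting with Hba or Hbb, the alpha and beta globin genes, together held at least 20% of UMIs. The rule kept 1243 of 63769 cells (1.95%), and 999 of them (80.4%) came from 1 library, the second severe one. The cells were chosen by their measured globin share, so globin levels and every comparison with the cells left outside are given as descriptions with no test.

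The cells came from droplet libraries of 8-week-old female Wistar rats, made 7 days after surgery from a 10-mm stretch of cord around the lesion. A weight of 10 g had been dropped on the cord exposed at T9 from 12.5 mm for mild, 25 mm for moderate and 50 mm for severe injury, while sham rats had their lamina removed without an impact. Each group had 2 libraries, numbered 1 and 2, with 31482153 to 131045446 UMIs each. The study's text speaks of a cord for each library, while the labels do not say that each came from a separate animal, so the spread between libraries may be partly technical. The tissue was digested with enzymes, and whether red cells were lysed is not given in the sources used here. Sham 1 stood apart in its other cells, where 9 neutrophil markers summed to 58197 CPM (UMIs scaled to a common total after globin was left out), against 183 to 1906 in the other 7 libraries, and 9 macrophage or microglia markers to 3247, against 22306 to 51725.

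Red cells are made in the marrow. A precursor loads its cytoplasm with globin messenger RNA, makes heme in its mitochondria, expels its nucleus and leaves the marrow as a reticulocyte, a young red cell that still holds RNA. In the blood the reticulocyte clears its mitochondria, ribosomes and remaining RNA and becomes an erythrocyte, which makes no new RNA. A hemoglobin-rich cell in a tissue library can therefore be described by which transcripts it still holds: those of heme synthesis, of the red cell membrane and of organelle clearance mark a late erythroid cell, and those of division or of early growth factor receptors mark a precursor.

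Alas2, the erythroid form of the first enzyme of heme synthesis, was the marker given for these cells. It had 802, 688 and 9231 UMIs in the 118 erythroid cells of sham 1, the 113 of severe 1 and the 999 of severe 2. Its level was 6147, 28277 and 17751 CPM, against 1.47, 0.787 and 3.84 CPM in the other cells of the same 3 libraries. It was present in 81.4%, 77.9% and 89.7% of erythroid cells and in 0.433%, 0.146% and 1.40% of other cells. After every cell was thinned to 500 UMIs, globin included, the erythroid shares were 44.1%, 42.5% and 40.4% and those of other cells at most 0.138%. Alas2 went with the label in all 3 libraries. In the few erythroid cells elsewhere, Alas2 had 14 UMIs in 7 of 7 cells of sham 2, 14 in 4 of 5 of moderate 2 and 3 in the 1 cell of mild 2.

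The stretch before the start of 4 genes is shown here: Alas2, Lgals5 and Hemgn were among the 5 genes with the largest ratio to other cells, of those with at least 100 CPM in the erythroid cells of each library, and Hba-a2 is an alpha globin gene. Erythroid genes are known to be bound by the factor GATA1 at GATA letters and by KLF1 at CACCC letters. The sequences are the 250 bases upstream of the start in RefSeq's promoter table (build GRCr8), read 5′ to 3′ on the gene's strand, with capitals for the letters searched on both strands. The GATA letters were AGATAA or else AGATAG, and the same with a leading T, which gives TGATAA or else TGATAG. The CACCC letters were CCACACCC or else the variant CCGCACCC. The strings do not overlap in these windows. The Alas2 window is chrX:22895200-22895449 on the plus strand, the Lgals5 window chr10:64355138-64355387 on the minus strand, the second of 2 Hemgn windows chr5:65485822-65486071 on the minus strand and the Hba-a2 window chr10:15829139-15829388 on the minus strand. The other Hemgn window, not printed, held none of the letters searched.
Alas2: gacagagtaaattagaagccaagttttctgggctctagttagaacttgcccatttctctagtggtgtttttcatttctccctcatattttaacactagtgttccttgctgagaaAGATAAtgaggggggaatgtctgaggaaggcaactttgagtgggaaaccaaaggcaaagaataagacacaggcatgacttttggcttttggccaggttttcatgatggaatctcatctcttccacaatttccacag
Lgals5: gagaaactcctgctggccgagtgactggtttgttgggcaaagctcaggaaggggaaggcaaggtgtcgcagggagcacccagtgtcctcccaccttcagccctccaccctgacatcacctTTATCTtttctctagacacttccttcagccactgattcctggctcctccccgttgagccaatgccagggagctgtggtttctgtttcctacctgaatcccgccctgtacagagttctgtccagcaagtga
Hemgn: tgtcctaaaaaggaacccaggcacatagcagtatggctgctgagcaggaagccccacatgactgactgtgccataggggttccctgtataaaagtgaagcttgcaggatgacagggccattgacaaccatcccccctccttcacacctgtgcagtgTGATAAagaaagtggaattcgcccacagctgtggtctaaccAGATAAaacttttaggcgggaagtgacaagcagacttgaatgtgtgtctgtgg
Hba-a2: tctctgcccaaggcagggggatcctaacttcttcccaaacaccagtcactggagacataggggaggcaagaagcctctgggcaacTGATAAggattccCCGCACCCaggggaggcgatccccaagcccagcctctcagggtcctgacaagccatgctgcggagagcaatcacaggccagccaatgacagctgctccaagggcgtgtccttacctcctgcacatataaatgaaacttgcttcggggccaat
Alas2 holds AGATAA 136 bases before the start, Lgals5 the same letters on the other strand, printed as TTATCT, 130 bases before it, Hemgn TGATAA and AGATAA 94 and 53 bases before it, and Hba-a2 TGATAA and CCGCACCC 165 and 152 bases before it. Of the 15 genes with the largest ratio to other cells (given below), 12 had an entry, and 9 of those held at least 1 of the GATA letter strings in a window, which 27.0% of all 33469 listed windows of this length also hold. The CACCC strings stood in 2 of the 12 and in 4.07% of all windows. Alox15, Ahsp and Slc4a1 had no entry.

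Erythroid cells were unevenly spread over the libraries. Sham 1 held 118 among 10736 kept cells (1.10%), and sham 2 held 7 among 2702 (0.259%). In the mild group none of 9285 cells and 1 of 9020 met the rule, where 0 cells allow a share of up to 0.0323%. None of 11559 cells of moderate 1, which allows up to 0.0260%, and 5 of 7234 of moderate 2 (0.0691%) did so. Severe 1 held 113 among 4236 (2.67%; 95% Wilson interval 2.22 to 3.20%, which covers counting error only) and severe 2 held 999 among 8997 (11.1%; 10.5 to 11.8%). The severe libraries were thus the highest of the 8 and the mild and moderate libraries the lowest, but the replicates of a group differed several-fold, and severe 2 stood apart from every other library.

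**Figure D1:**
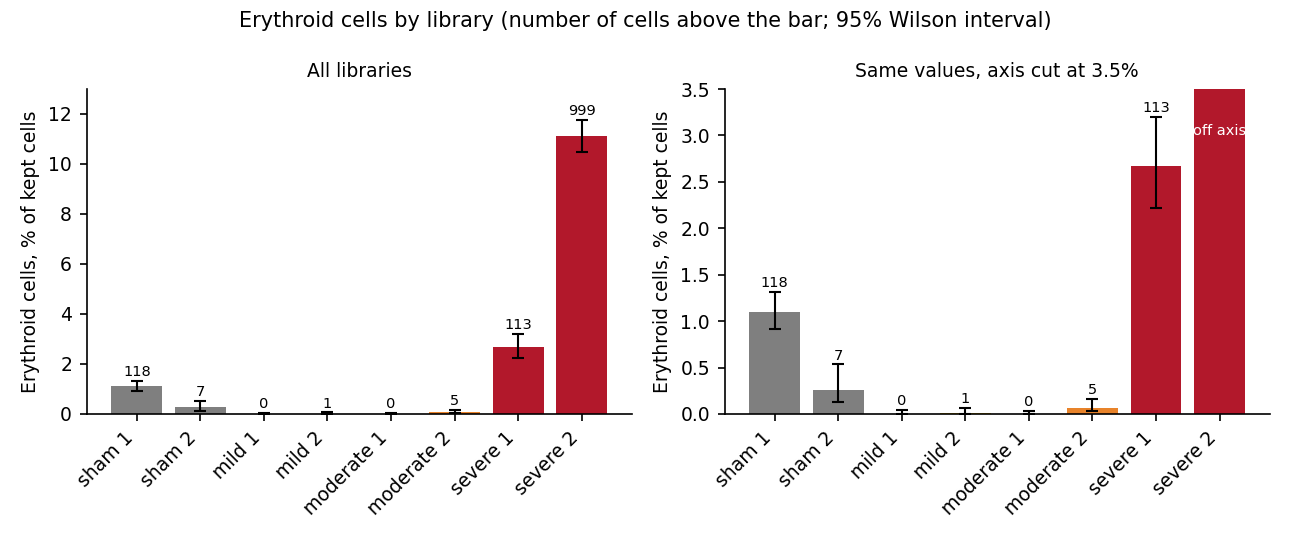
Erythroid cells as a percentage of kept cells in each of the 8 libraries (bars coloured by group, number of cells above, error bars 95% Wilson intervals), with the axis of the right panel ended at 3.5% so that small shares can be read. Severe 2 reaches 11.1%, severe 1 2.67% and sham 1 1.10%, and the 4 mild and moderate libraries lie at or under 0.0691%.

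The mean share was 0.679% ± 0.594 (SD, n = 2) in sham, 0.00554% ± 0.00784 in mild, 0.0346% ± 0.0489 in moderate and 6.89% ± 5.97 in severe. An exact permutation test of the Kruskal-Wallis statistic over every split of the 8 libraries into 4 groups of 2 gave p = 0.0476, where the smallest p possible is 0.00952. On Hba and Hbb symbols alone, the median erythroid cell held 46.8%, 41.0% and 40.2% of its UMIs in sham 1, severe 1 and severe 2. The p was 0.6 where these symbols held at least 50%, a limit that left 71 cells. It was 0.124 without sham 1, sham 2, severe 1 or severe 2 and 0.0667 without mild 1, so the call of a difference between groups needed all of these libraries.

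The 20% limit fell in a thin part of the range. Just inside it, at 20 to 25% of UMIs on Hba and Hbb symbols, lay 23 cells, of which 47.8% had an Alas2 UMI. Just outside, at 15 to 20%, lay 32 cells, of which 59.4% had one. Up to 37 cell barcodes were shared by a pair of libraries, at most 0.411% of the smaller one, and no barcode was erythroid in both. Doublets were kept: 30 of the 1243 erythroid cells were among those a doublet caller scored highest.

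Globin transcripts held most of the RNA. Beside Hbb (ENSRNOG00000058105), Hba-a3 (ENSRNOG00000045989) and 2 genes both named Hba-a2 (ENSRNOG00000047321 and ENSRNOG00000029886), LOC689064 (ENSRNOG00000047098), which RefSeq names Hbb-bs, and LOC103694857 (ENSRNOG00000061299) were counted as beta globin, though the rule did not use them. The reference table used here has no entry for LOC103694857, so its identity is uncertain, and the shares of all globin given here, with the limit of 90%, depend on it. It had 1884, 1715 and 3109.8 UMIs per erythroid cell in sham 1, severe 1 and severe 2, against 3.63, 2.81 and 25.3 per other cell. These 6 genes together held a median of 90.1% of a cell's UMIs in sham 1, 95.3% in severe 1 and 94.3% in severe 2. The lowest cell had 32.2%, in sham 1, and the highest 98.4%, in severe 1. Globin held at least 90% of UMIs in 60 of 118 cells of sham 1, 106 of 113 of severe 1 and 874 of 999 of severe 2, so about as many cells of sham 1 lay under this level as above it.

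LOC103694857 had the most UMIs of the genes counted as beta globin in sham 1 and both severe libraries. It held 35.7% of globin UMIs in sham 1, 48.4% in severe 1 and 44.8% in severe 2. The gene named Hbb held only 5.15%, 0.695% and 0.702%. Of all UMIs counted as beta globin, Hbb made up 10.0% in sham 1, 3.21% in the 7 cells of sham 2, 25.3% in the 5 cells of moderate 2, 1.21% in severe 1 and 1.21% in severe 2. In the 1 cell of mild 2 it made up 93.3%. The mix of beta genes thus varied from library to library, and near-identical copies may share reads, so the split between them is uncertain.

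The globin UMIs of the other cells had a mix of beta genes like that of the erythroid cells of their library. There, Hbb made up 11.2% of beta globin UMIs in sham 1, 88.0% in mild 2, 1.46% in severe 1 and 1.49% in severe 2. Other cells held 54.4 globin UMIs each in severe 2, 10.0 in sham 1 and 5.79 in severe 1, against 0.0336 to 1.46 in the remaining libraries. Globin RNA outside erythroid cells was therefore most abundant in the 3 libraries with the most erythroid cells.

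Alpha and beta chains pair in hemoglobin. With LOC103694857 counted as beta, the ratio of alpha to beta UMIs was 0.940 in sham 1, 0.734 in severe 1 and 0.729 in severe 2, and without that gene it was 3.05, 4.55 and 3.24. Embryonic globins were at or near 0 over all 1243 cells. Hbg1 and Hbe2 had 0 UMIs, Hbz 3 and Hbe1 16, and Hbq1a, a minor alpha-like gene, had 55 in 53 cells.

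**Figure D2:**
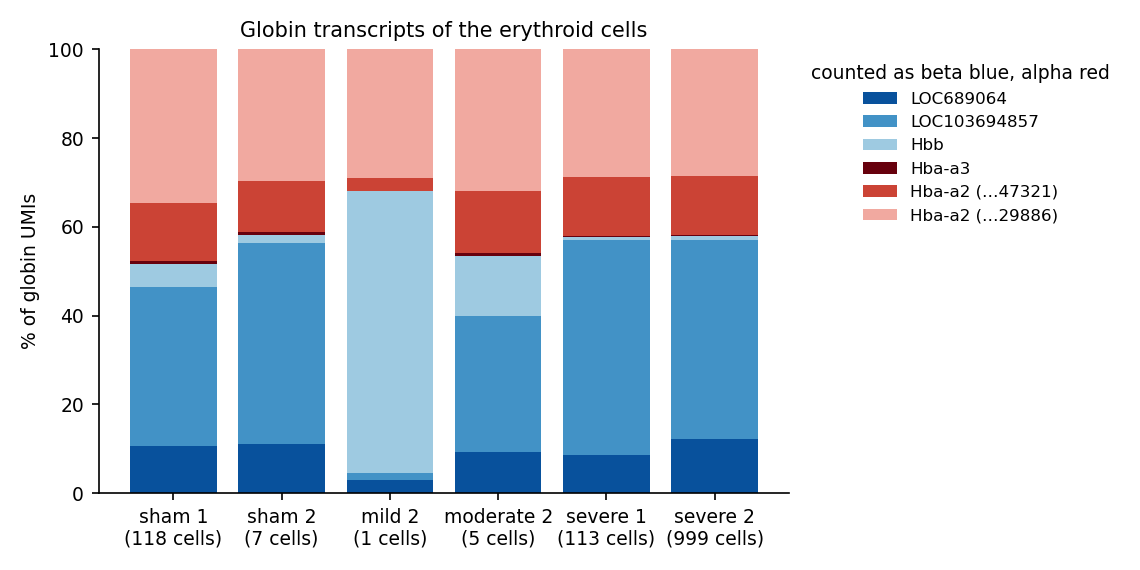
Share of each of the 6 globin genes in the globin UMIs of erythroid cells, by library (genes counted as beta in blue, alpha genes in red). Sham 1 and both severe libraries are led by LOC103694857 among the blue genes, and the single cell of mild 2 by Hbb at 63.6% of globin UMIs.

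Little else was left in these cells. Their median UMI number was 5046.5 in sham 1, 3582 in severe 1 and 7336 in severe 2, but without globin it was 345 in sham 1, 134 in severe 1 and 370 in severe 2, against 2961, 8145 and 13864 in the other cells. The median number of detected genes was 202, 80 and 186, against 847, 2046 and 2646. Erythroid cells thus held fewer non-globin transcripts and fewer genes than the other cells in all 3 libraries, and those of severe 1 the fewest. Severe 1 gave only 24331 non-globin UMIs in all, so that 1 UMI there is worth about 41.1 CPM, against 130478 in sham 1 and 520024 in severe 2. In sham 1, 101124 of them came from the 58 cells with under 90% globin and 29354 from the 60 others. Cells under 90% gave the smaller part in severe 1 (4223 against 20108) and severe 2 (125986 against 394038). Levels pooled over all erythroid cells of sham 1 thus mostly weigh its cells under 90%. Alas2 had 2334 CPM in these and 19282 in the 60 others.

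Transcripts of genes with Mt- symbols, the only mitochondrial ones summed here, were a smaller part of all UMIs in erythroid cells. Outside globin, their direction depended on how cells were weighted. Mt- genes held a median of 0.108%, 0.0602% and 0.128% of all UMIs in erythroid cells and 1.44%, 2.12% and 2.17% in other cells. Of the summed non-globin UMIs they held 2.47%, 2.50% and 3.20%, against 1.96%, 2.39% and 2.33%, so the pooled share was above that of the other cells in each library. In the median erythroid cell, where each cell weighs the same, the non-globin share was 1.06%, 1.37% and 2.16%, under the median of the other cells given above, which is over all UMIs, in sham 1 and severe 1 and level with it in severe 2. Ribosomal protein genes (symbols with Rpl or Rps and a digit, which take in a few S6 kinase genes) held 11.4%, 7.58% and 9.49% of non-globin UMIs, against 9.59%, 14.7% and 15%, more in sham 1 and less in the severe libraries.

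The remaining transcripts were set against the other cells of the same library, on the scale of CPM without the 6 globin genes, in the 3 libraries with at least 20 erythroid cells. A gene was called higher or lower when its level differed at least 2-fold the same way in all 3, with at least 50 CPM on the higher side in each and counts of 0 taken as 3 UMIs. Of 1956 genes with such a level, 171 (8.74%) were higher in erythroid cells and 106 (5.42%) lower, and the median ratio was 0.637. On the scale of UMIs per cell only 35 genes were higher and 1757 lower, and 12 of the genes called higher that were in the lists or among those with the highest CPM or ratio (Blvrb, Cat, Cd59, Urod, Ftl1, Gpx1, Adipor1, Ubb, Tpt1, Prdx2, Gabarapl2 and Snx3) had fewer UMIs per erythroid than per other cell. With only the Hba and Hbb symbols left out of the CPM, 42 were higher and 1628 lower, and Cd59, Ftl1, Tpt1 and Snx3 had ratios below 1. In cells with at least 50% of UMIs on Hba and Hbb symbols the counts were 69 and 5. Without sham 1 they were 264 and 549, and without severe 1 they were 186 and 303. In cells with at least 90% globin, by all 6 globin genes, they were 217 and 230. Of the 171 higher genes 167 were called there too, and of the 106 lower ones 40. A gene that reached 50 CPM in all 3 libraries only in erythroid cells could be called higher but not lower. The counts below therefore describe the lists and are no support for them. Ratios are geometric means over the 3 libraries, and levels are given for sham 1, severe 1 and severe 2 in this order.

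Heme synthesis genes were retained unevenly. Of 12 listed genes 5 were higher, beside 8.74% of all genes tested, none was lower and 7 were below the level. Fech, the last enzyme of the pathway, which puts iron into heme, had 575, 4028 and 2854 CPM against 8.63, 9.63 and 8.93 in other cells, a ratio of 207. Urod, an enzyme of its middle steps, had 245, 534 and 871 CPM against 50.8, 48.1 and 56.6, a ratio of 9.38. Alas2, Fech and Urod were all lowest in sham 1 and yet above the other cells in all 3 libraries. In the sham 1 cells with at least 90% globin, these 3 genes had 19282, 1771 and 511 CPM. Slc25a37, the importer of iron into mitochondria, and Fam210b, also higher, had 22, 9 and 88 and 10, 7 and 56 UMIs. Uros and Cpox, of the middle steps, had only 0, 0 and 9 and 5, 0 and 8 UMIs.

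Erythroid transcription factors were present at low levels. Of 8 listed genes 2 were higher, beside 8.74% of all genes tested, and 6 below the level. Klf1, an activator of adult beta globin, had 16, 8 and 354 UMIs, or 123, 329 and 681 CPM against 0.962, 0.455 and 1.07 in other cells. Nfe2, a subunit of the factor NF-E2 that binds globin enhancers, had 161, 329 and 331 CPM against 43.1, 1.95 and 2.04, so the other cells of sham 1 held more of it than those of the severe libraries. Gfi1b, a repressor of erythroid and megakaryocyte cells, had 4, 1 and 78 UMIs. Gata1 was listed at 0 in the erythroid and in the other cells of the 3 libraries.

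Of the 18 listed red cell membrane and skeleton genes measured, 8 were higher, beside 8.74% of all genes tested, and 10 were below the level. Rhd, an Rh blood group protein, had 491, 2343 and 2108 CPM against 0.654, 1.55 and 1.04, a ratio of 1320.5. Slc4a1, band 3, the anion exchanger of red cells, had 950.4, 1849 and 1161 CPM against 0.423, 0.186 and 0.288, a ratio of 4481. Kel, the Kell blood group protein, had 61.3, 534 and 358 CPM against 0.0256, 0.0207 and 0.0411. These 3 genes were near 0 in the other cells of every library. Cd59, a complement inhibitor also made by other cells, had 598, 247 and 427 CPM against 255, 64.3 and 69.0, a ratio of 3.82 only. Sptb, a spectrin gene of the skeleton under the membrane, was below the level with 7, 1 and 45 UMIs.

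Iron uptake and storage genes were split. Of 9 listed genes 2 were higher, beside 8.74% of all genes tested, 2 were neither and the rest were below the level. Ftl1, the ferritin light chain, had 8063, 60006 and 39317 CPM against 1594, 14171 and 15842, a ratio of 3.76, whereas Fth1, the heavy chain, had 16417, 13029 and 33750.4 CPM against 22569.8, 16051 and 20645, a ratio of 0.988. Snx3, a sorting nexin that recycles the transferrin receptor, had 743, 3165 and 3104 CPM against 309, 484 and 503, a ratio of 4.60. Tfrc, the transferrin receptor through which young erythroid cells take up iron, had only 2, 1 and 5 UMIs. Ferritin transcripts were thus plentiful and those of the receptor were not.

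Of 11 genes of globin folding, gas transport and redox defence 7 were higher, beside 8.74% of all genes tested, 2 neither and 2 below the level. Prdx2, a peroxide-removing enzyme of red cells, had 5051, 17262 and 19297 CPM against 416, 666 and 685, a ratio of 20.7. Gpx1, a glutathione peroxidase, had 4966, 11056 and 11563 CPM against 482, 1565 and 2373, a ratio of 7.08. Car2, a carbonic anhydrase, had 2552, 9617 and 11692 CPM against 37.3, 25.4 and 27.7, a ratio of 222. All 3 were lowest in sham 1. In the sham 1 cells with at least 90% globin, Prdx2, Gpx1 and Car2 had 15603, 10425 and 6677 CPM. Bpgm, which makes the bisphosphoglycerate that lowers the oxygen affinity of hemoglobin, had 2920.0, 11837 and 11036 CPM against 69.7, 31.9 and 44.8, a ratio of 156. Ahsp, the chaperone of free alpha globin, had 1901, 8014 and 8477 CPM against 0.603, 1.04 and 2.05, a ratio of 4659. Car1, another red cell carbonic anhydrase, had 0, 1 and 208 UMIs, nearly all in severe 2.

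Genes of ubiquitin, autophagy and organelle clearance gave 6 higher of 16, beside 8.74% of all genes tested, with 3 neither and 7 below the level. Bnip3l (Nix), the receptor that marks reticulocyte mitochondria for autophagy, had 2146, 9823 and 5492 CPM against 173, 138 and 118, a ratio of 34.5. Alox15, the reticulocyte lipoxygenase that attacks organelle membranes, had 2521.5, 1726 and 5996 CPM against 0.167, 0.373 and 2.01, a ratio of 5931. Gabarapl2, an autophagosome protein of the Atg8 family, had 1893, 8713 and 6980.4 CPM against 379, 277 and 273, and the ubiquitin gene Ubb 20356, 44018 and 42079 CPM against 4976, 4159 and 4250.0. Alox15 was lowest in severe 1, unlike the other 3, which were lowest in sham 1. In cells with at least 90% globin Ubb had 49193, 49184 and 50500.2 CPM and was not lowest in sham 1. Bnip3l, Alox15 and Gabarapl2 had 5280, 6234 and 5417 CPM in such cells of sham 1.

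Of 12 other late erythroid transcripts 6 were higher, beside 8.74% of all genes tested, 4 neither and 2 below the level. Ypel3, the one with the most UMIs, had 399, 2096 and 1836 CPM against 224, 175 and 180.5 and was not called, since it was under 2-fold in sham 1. Tent5c, a poly(A) polymerase, had 904, 1315 and 1183 CPM against 3.81, 17.0 and 19.1, a ratio of 104. Hemgn (hemogen), a nuclear protein of erythroid cells, had 322, 411 and 496 CPM against 0.0641, 0.0828 and 0.123, a ratio of 4646. Tent5c and Hemgn stood above the other cells in each library, and so did Adipor1, an adiponectin receptor, at 636, 1685 and 890.3 CPM.

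The listed genes of early precursors and of division had few UMIs, and most were below the level. Of the 5 progenitor genes, Kit and Myb had 0 UMIs over the 3 libraries, and Epor, Gata2 and Cd34 had 2, 0 and 1, 4, 0 and 1 and 3, 0 and 0. Of the 9 cell cycle genes measured 8 were below the level, and Pcna was neither higher nor lower. Mki67 had 9, 1 and 22 UMIs, Top2a 1, 0 and 10 and Birc5 2, 0 and 60. In severe 2 Birc5 was at 115 CPM, against 84.5 in other cells. Cdc25b, a gene of division outside these lists, is among the largest ratios given below. At 24331 non-globin UMIs in severe 1, a level under 123 CPM gives fewer than 3 UMIs there.

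**Figure D3:**
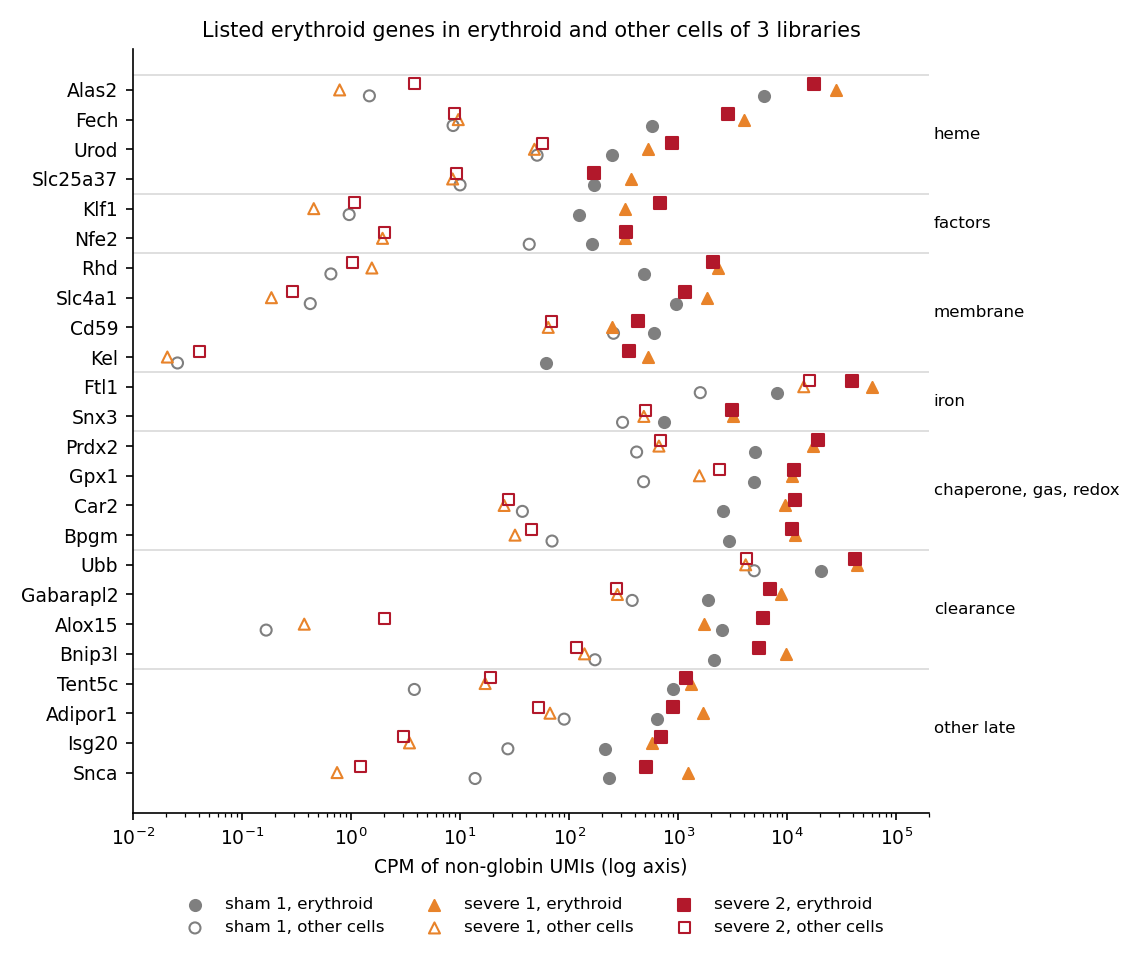
Levels of the 24 listed genes called higher with the most UMIs (up to 4 a list) in erythroid cells (filled) and other cells (open) of sham 1, severe 1 and severe 2, in CPM of non-globin UMIs on a log axis. Alas2 lies at 6147, 28277 and 17751 CPM in erythroid cells, and Ubb, Ftl1 and Gpx1 are also plentiful in other cells.

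The 15 genes with the highest mean level were Ftl1, Ubb, Ybx3, Fth1, AC134224.3, AY172581.24, Tpt1, Alas2, Prdx2, Tmsb4x, Rpl41, Lgals5, Gpx1, S100a9 and Bpgm. Ybx3, a cold-shock domain protein that binds messenger RNA, had 10017, 28769.9 and 25901 CPM against 410.4, 265 and 313, a ratio of 60.3. Tpt1, a translationally controlled protein, had 13918, 22646 and 16445 CPM against 3261, 3241 and 4363, a ratio of 4.83. Tmsb4x, an actin-binding peptide, had 18348, 3329 and 10946 CPM against 15353, 14476 and 19891, and was not called. S100a9, a neutrophil protein, had 24556, 123 and 1192 CPM in erythroid cells and 41154, 1157 and 246 CPM in other cells, so it stood on this list through sham 1.

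The 15 largest ratios, among 531 genes with at least 100 CPM in the erythroid cells of each library, were those of Alas2, Lgals5, Alox15, Ahsp, Hemgn, Slc4a1, Cd52, Add2, Rhd, Tmem86b, Cdc25b, Rsad2, Tmcc2, Klf1 and Aqp1. Lgals5, galectin-5 of rat reticulocytes, had 4062, 8878 and 17003 CPM against 1.54, 0.269 and 3.91, a ratio of 7233. Cd52, a surface glycopeptide best known from lymphocytes, had 1111, 3493 and 3552 CPM against 0.538, 0.393 and 1.46, a ratio of 3543. T cell markers summed to 53.6, 0 and 0 CPM in the same cells, against 56.8, 78.4 and 49.9 in other cells. The part of lymphocyte RNA in the level of Cd52 was not tested. Add2, the beta subunit of adducin in the membrane skeleton, had 169, 452 and 271 CPM against 0.0641, 0.0414 and 0.214. Cdc25b, a phosphatase that promotes entry into mitosis, had 682, 945 and 565 CPM against 2.18, 0.704 and 0.600. Rsad2 (viperin), an interferon-induced antiviral enzyme, had 889, 1315 and 792 CPM against 14.5, 0.704 and 0.765.

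The 10 lowest ratios of genes called lower were those of Mgp, Col3a1, Dcn, Lum, Timp1, Serpinf1, Col8a1, Fstl1, Col1a1 and Apod. Mgp, matrix Gla protein, had 628, 41.1 and 51.9 CPM against 4097, 3016 and 597 in other cells, a ratio of 0.0566. Dcn, the proteoglycan decorin, had 207, 41.1 and 40.4 CPM against 1319, 1057 and 373. In severe 1, Mgp and Dcn had 1 UMI each, while Col3a1 had 0 and was taken as 3 UMIs. The order of these ratios is therefore uncertain.

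Transcripts of other cell types were looked for in the erythroid cells with a list for each type. The 9 neutrophil markers summed to 37324 in sham 1, 164 in severe 1 and 1725 in severe 2, in CPM of non-globin UMIs, and to 58197, 1906 and 434 in other cells. S100a9 was the most abundant of them, at 24556 CPM in sham 1, where Ngp alone was at 0, and 7 of the 9 were at 0 in severe 1. It was present in 100% of the erythroid and 99.95% of the other cells of sham 1, with lowest 2, median 10 and highest 811 UMIs in an erythroid cell. In severe 2 the sum was above that of the other cells, but S100a9 was present in 2.70% of erythroid cells there, with up to 167 UMIs in a cell. S100a9 was thus in every erythroid cell of sham 1 and in few of the severe libraries. In the cells with at least 90% globin the neutrophil sums were 26470, 149 and 76.1 CPM.

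Macrophage or microglia markers were led by Apoe and were plentiful in severe 2. The 9 markers summed to 1809 in sham 1, 3124 in severe 1 and 13188 in severe 2, against 3247, 32088 and 50837 CPM in other cells. Apoe had 966, 2795 and 11048 CPM, and Cx3cr1 was at 0 in sham 1 and, with Csf1r, in severe 1, while no marker was at 0 in severe 2. The 6 oligodendrocyte markers summed to 4951 in sham 1, 493 in severe 1 and 1115 in severe 2, against 20061.5, 1663 and 2626 CPM in other cells. Mbp was the most abundant of them in severe 2, and Mog was at 0 in severe 1.

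Markers of the remaining types had fewer UMIs. T cell markers had 7 UMIs in sham 1, led by Cd3d and with Cd2 at 0, and all 5 were at 0 in both severe libraries. B cell markers had 1, 0 and 5 UMIs. Endothelial markers summed to 1655 in sham 1, 0 in severe 1 and 309.6 in severe 2, led by Cldn5, above the 275, 87.0 and 81.0 CPM of other cells in sham 1 and severe 2, with all 3 at 0 in severe 1. In cells with at least 90% globin they summed to 136 in sham 1 and 10.2 in severe 2, below the other cells. Platelet markers summed to 1349 in sham 1, 82.2 in severe 1 and 115 in severe 2, led by Pf4. Other cells had 1228, 256 and 270 CPM of them. Gp9 and Itga2b were at 0 in both severe libraries. Fibroblast markers, led by Dcn and with Col1a2 at 0 throughout, summed to 215 in sham 1, 41.1 in severe 1 and 57.7 in severe 2. Other cells had 1498, 2885 and 656 CPM of these. Astrocyte markers, led by Gfap, summed to 153 in sham 1, 82.2 in severe 1 and 46.2 in severe 2, with Aqp4 and Aldh1l1 at 0 throughout. Against 61.0, 35.4 and 52.3 CPM in other cells, the astrocyte sum was above them in sham 1 and severe 1. The part of these transcripts in the levels above was not tested.

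**Figure D4:**
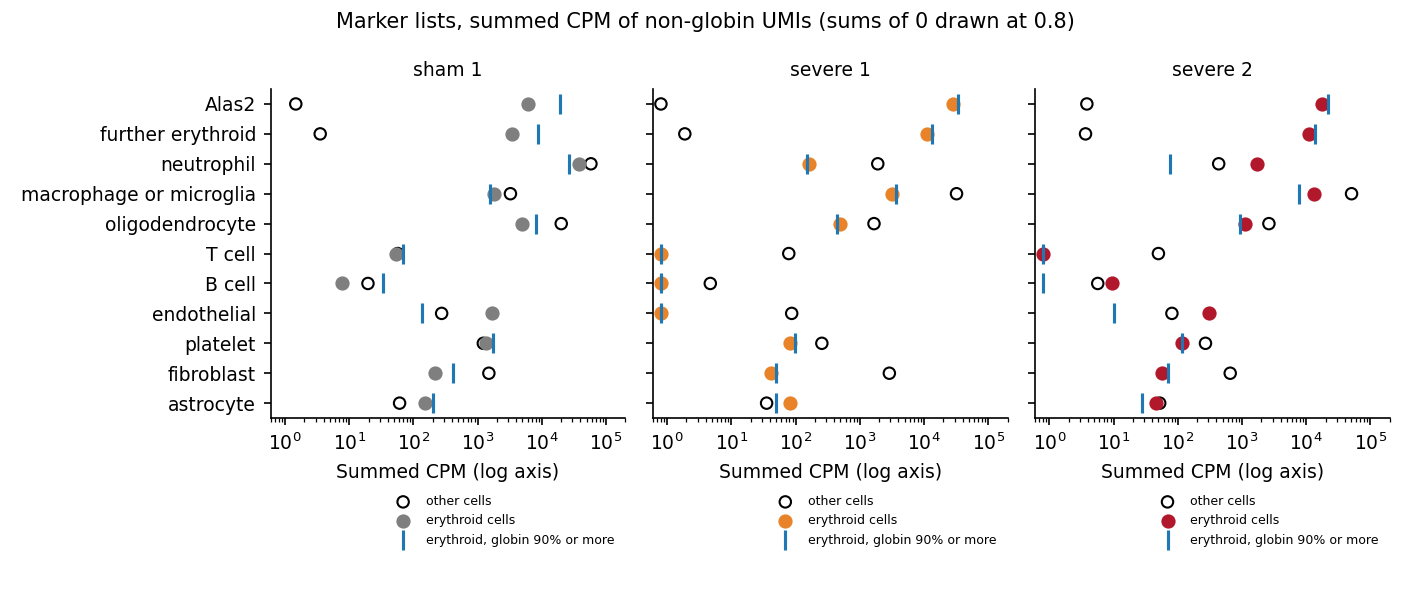
Summed CPM of each marker list, on a log axis, in other cells (open circles), all erythroid cells (filled circles) and erythroid cells with at least 90% globin (blue ticks) of 3 libraries, with sums of 0 drawn at 0.8. Neutrophil markers are at 37324 CPM in the erythroid cells of sham 1 and at 164 in severe 1, and Alas2 and the further erythroid markers are near 0 in other cells of every library.

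Erythroid cells differed among themselves by how much of their RNA was globin, a description inside the measure that chose them. In severe 2, cells with under 80% globin had 2158 CPM of Alas2, those with 80 to 90% had 9001, those with 90 to 95% had 19967 and those with at least 95% had 26969. Apoe was highest under 80%, at 39254 CPM, and had 5515 at 90 to 95% and 6571 above that. In sham 1 the 41 cells under 80% had 1464 CPM of Alas2 and 27305 of S100a9, and the 46 cells at 90 to 95% had 18165.5 and 17227. In severe 1, where only 7 cells were under 90%, Apoe had 2819 CPM at 90 to 95% and 3900.2 at 95% or more. Alas2 was thus lower where globin was lower, while Apoe was higher at 95% or more than at 90 to 95% in both severe libraries. Slc4a1 was lowest in the cells richest in globin among those with at least 90%. Severe 1 had 3302 CPM at 90 to 95% and 520.0 at 95% or more, and severe 2 had 1773 and 273, while Alas2 was higher at 95% or more in both.

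Counts in single cells were low for Alas2, Ahsp and Slc4a1 and higher for Ftl1 and Ubb. An erythroid cell had lowest 0, median 4 and highest 31 Alas2 UMIs in sham 1, lowest 0, median 4 and highest 23 in severe 1 and lowest 0, median 8 and highest 52 in severe 2. For Ahsp the values were lowest 0, median 1 and highest 42, lowest 0, median 0 and highest 23 and lowest 0, median 2 and highest 109. Slc4a1 had a median of 0 in all 3, and at most 15 UMIs, in a cell of sham 1. Ftl1 had lowest 0, median 19 and highest 276 in severe 2, and Ubb lowest 0, median 14 and highest 255. The cells of the 3 libraries overlapped for Alas2, Ahsp and Slc4a1.

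The erythroid cells of the severe libraries were compared with those of sham 1 on UMI counts summed per library, without globin, by the quasi-likelihood test of edgeR with Benjamini-Hochberg adjustment. Sham 1 was the only sham library with at least 20 erythroid cells, so 1 library stood against 2, and the mild and moderate groups could not be tested. The only spread between replicates was that of severe 1 and severe 2 (1 residual degree of freedom). The prior degrees of freedom came out infinite, so the errors and p-values rest on a spread pooled over all genes and assume that sham varies like severe. Of 2000 genes, 83 (4.15%) were higher in severe and 41 (2.05%) lower at an adjusted p under 0.05. By DESeq2 only 3 were higher and 1 lower (1783 genes had no adjusted p), and by edgeR without the filter on low counts 2 and 2, so nearly all of these calls ended under either. Scaled by library size only, 23 were higher and 112 lower, since the median log2 fold of all genes was then -0.97 in place of -0.11. The neutrophil marker sums given above, 37324 CPM in sham 1 and 164 and 1725 in the severe libraries, and the share of cells with at least 90% globin, 50.8% against 93.8% and 87.5%, moved with this comparison, and their part in it was not tested.

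In all erythroid cells, 19 listed genes were higher in the severe libraries than in sham 1 and none was lower, a difference between these libraries that cannot be told apart from what sets sham 1 apart. None of the 19 was called by DESeq2, and only Ftl1 was without the filter on low counts. Alas2, at 4853 in sham 1, 34905 in severe 1 and 23746 in severe 2 on the scale of TMM-scaled CPM, had a log2 fold of 2.59 ± 0.52 (SE), adjusted p = 1.34e-04 by edgeR. Fech was at 454 in sham 1, 4972 in severe 1 and 3818 in severe 2, with a log2 fold of 3.27 ± 0.73 (SE) (adjusted p = 8.49e-04), and Ftl1 at 6365 in sham 1, 74072 in severe 1 and 52596.5 in severe 2, with 3.31 ± 0.48 (SE) (adjusted p = 6.57e-09). By list, 4 of 9 heme genes tested, 2 of 12 membrane genes, 2 of 4 iron genes, 6 of 10 chaperone, gas and redox genes, 4 of 13 clearance genes and 1 of 10 other late transcripts were higher, beside 4.15% of all genes. Of the 8 transcription factors 4 were tested, with a median log2 fold of 2.78, and of the 10 cell cycle genes 2 were, and none of these was called, while no progenitor gene passed the filter on low counts. Slc4a1 did not pass, at a log2 fold of 1.33 ± 0.73 (SE) (adjusted p = 0.342).

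None of these calls was made in cells with at least 90% globin, 60 in sham 1, 106 in severe 1 and 874 in severe 2, a limit chosen after the data were seen. There, Alas2 was at 19282, 33419.5 and 21917 CPM in sham 1, severe 1 and severe 2, with a log2 fold of 0.48 (edgeR adjusted p = 0.610). Ubb was at 49193, 49184 and 50500.2 CPM, with -0.017 (adjusted p = 0.979), and Fech at 1771, 4874 and 3499.7 CPM, with 1.19 (adjusted p = 0.196). Of 44 listed erythroid genes tested both ways by edgeR, 19 were called in all erythroid cells and 0 in those with 90% globin, where 8 had an unadjusted p under 0.05, and their median log2 fold was 2.35 and 0.50. Only 483 genes could be tested in these cells, and 3 were higher and 15 lower in severe. In cells with a share of at least 50% on the Hba and Hbb symbols, 112 genes could be tested. There, 12 named genes that were called higher in all erythroid cells had a log2 fold under 0, Alas2 among them at -1.18.

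**Figure D5:**
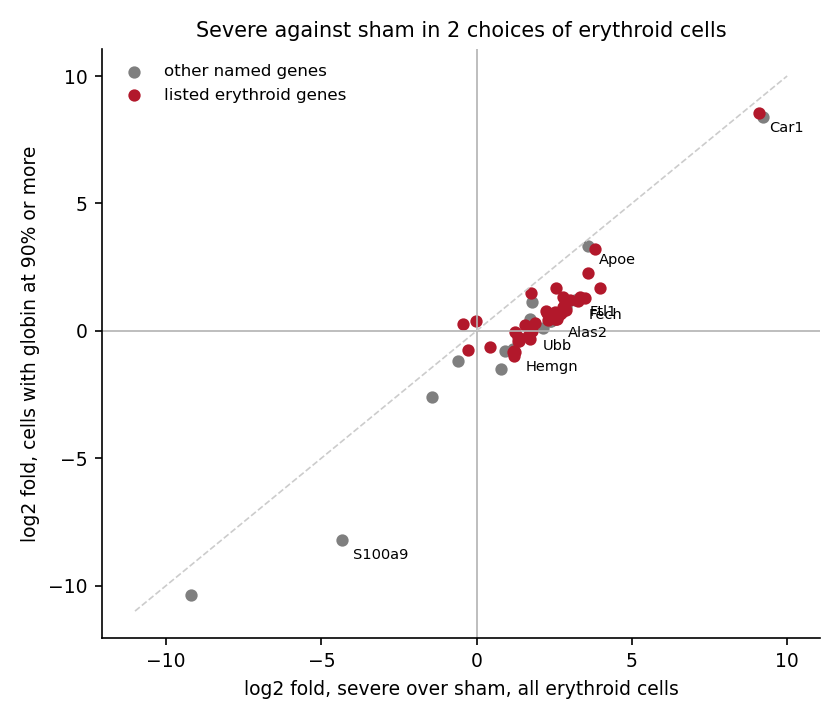
Log2 fold of severe over sham for 60 named genes in all erythroid cells (horizontal) and in those with at least 90% globin (vertical), both by edgeR, with listed erythroid genes in red and a dashed line of equal values. Of the 44 red genes 42 lie below the line, with a median of 2.35 on the horizontal and 0.50 on the vertical axis.

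The calls in cells with 90% globin were led by genes of other cell types. S100a9 was at 19386 in sham 1, 152 in severe 1 and 1595 in severe 2, in TMM-scaled CPM, with a log2 fold of -4.32 ± 0.53 (SE) (edgeR adjusted p = 2.12e-12), and at -8.20 (adjusted p = 5.51e-08) in cells with 90% globin. Apoe was at 762 in sham 1, 3449.9 in severe 1 and 14779 in severe 2, with 3.59 ± 0.66 (SE) (adjusted p = 2.83e-05), and at 3.34 (adjusted p = 0.00237) in cells with 90% globin. The other 2 genes higher in those cells were Rbm38, an RNA-binding protein, and RT1-T24-4, a class I gene of the major histocompatibility complex, named here after their values were seen. The 15 lower ones took in S100a8, the platelet chemokine Pf4 and the myelin gene Cldn11. The same direction held in the other cells of these libraries, where S100a9 was at 41154, 1157 and 246 CPM and Apoe at 1021, 28688 and 42686 CPM, and the part of that RNA in these calls was not tested.

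The 5 genes with the highest fitted log2 folds all had 0 UMIs in sham 1, so their rank rests on those zeros, and each fold given is a lower bound against 3 UMIs in that library. Apoc1, an apolipoprotein, with 0, 8 and 147 UMIs, was at least 21.6-fold higher in severe (edgeR adjusted p = 9.03e-04), and Car1, with 0, 1 and 208 UMIs and so resting on severe 2, at least 16.1-fold (adjusted p = 9.95e-04). Dusp2, Fabp4 and LOC108348091 had 70, 55 and 52 UMIs in severe 2, at most 2 in severe 1 and bounds of 4.96-, 6.69- and 5.08-fold. The 5 genes with the lowest fitted log2 folds, ranked in the same way over counts of 0 to 3 UMIs in the severe libraries, were AABR07034362.2, Gpx2, the neutrophil collagenase Mmp8, the sterol synthesis enzyme Cyp51 and Pglyrp1, a peptidoglycan-binding protein of neutrophils. Their UMIs were 63, 0 and 0 for the first, 27, 0 and 0 for Gpx2, 51, 1 and 1 for Mmp8, 41, 0 and 2 for Cyp51 and 53, 0 and 3 for Pglyrp1, so nearly all of them came from sham 1. Against 3 UMIs in each severe library, the first was at least 4.77-fold and Gpx2 at least 2.04-fold lower.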

How the data were processed

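Cord cells of 8 libraries were captured with the 10x Genomics 3′ kit. The authors counted UMIs per gene and cell with Cell Ranger (version 5.0.1 per the file headers, 6.0.1 in the supplementary methods) on the build Rnor_6.0, and the deposited values are raw counts of 32623 genes in 68658 barcodes. Cells with at most 10% Mt- UMIs and at least 500 UMIs were kept, and no doublets were removed. The median kept cell that was not erythroid held 2964 to 13915 UMIs.

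Levels were computed as CPM without 6 globin genes. The rule named only Hba and Hbb symbols; LOC689064, which RefSeq names Hbb-bs, and LOC103694857, its neighbour in the gene list with no entry in the RefSeq table used, were added after their UMIs had been seen, and the fit was also made without this step. Erythroid and other cells were compared within libraries with at least 20 erythroid cells, with no test. Summed counts were tested with edgeR 4.0.16 (TMM, filterByExpr, quasi-likelihood) in R 4.3.3, and with DESeq2 1.42.0. Exact permutations and Wilson intervals used scipy 1.17.1, and doublets, the 7.7% of cells with the highest Scrublet score in each library, scanpy 1.11.5. The steps were tested on simulated data.

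The members and gene lists were chosen with earlier results of these data known. Genes named were all list genes, described by 2 to 4 examples, the 15 with the highest CPM and the 15 with the largest ratio (at least 100 CPM), and in a test the 5 largest rises and falls; the 10 lowest ratios, the bins by all 6 globin genes and the cells with 90% globin were added after the data were seen. Alternatives were limits of 10% and 50% of UMIs on Hba and Hbb symbols, 1000 UMIs and 20% Mt-. Others were doublet removal, UMIs per cell, other scalings and filters, and leaving out libraries. Ccnb2, Cd79a and Pecam1 were not analysed here, and some listed genes are not reported here.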

Additional observations from a re-analysis of the deposited data

How the results depend on the processing

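Globin limits of 10% and 50% below are on Hba and Hbb symbols, and that of 90% is on all 6 globin genes. Among cell choices, the number of erythroid cells was 1297 at a globin share of 10%, 1144 at 1000 UMIs and 1244 at a mitochondrial limit of 20%. The number was 1312 by all 6 globin genes and 1213 without called doublets. It was 71 at 50%, where the share over all libraries was 0.111% and the permutation p by group 0.600, and 244 without severe 2. The p by group was 0.0286 with cells of at least 90% globin and 0.0476 under the other choices of cells. The share was 2.06% without called doublets and 1.65% with cells of at least 90% globin. Leaving out each library in turn gave a p by group of 0.0381 to 0.124 and 244 to 1243 cells. Genes higher and lower than in other cells numbered 69 and 5 at 50% globin, 35 and 1757 by UMIs per cell, 42 and 1628 with only the Hba and Hbb symbols left out of the CPM, and 217 and 230 in cells with 90% globin. Leaving out each of the 3 libraries gave 185 to 264 higher and 112 to 549 lower. By UMIs per cell these genes were lower per erythroid than per other cell, as ratios: Blvrb 0.541, Cat 0.704, Cd59 0.174, Urod 0.428, Ftl1 0.171, Gpx1 0.323, Adipor1 0.660, Ubb 0.344, Tpt1 0.220, Prdx2 0.943, Gabarapl2 0.724, Snx3 0.209, with the ratio on the CPM scale above 1. With only the Hba and Hbb symbols left out the ratios below 1 were Cd59 0.579, Ftl1 0.570, Tpt1 0.732, Snx3 0.697, by construction of the larger denominator. The other ratios of the 61 named genes followed kept their direction under every setting tried.

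For severe against sham, the calls higher and lower were 23 and 112 by library size, 2 and 2 of 10630 genes without the filter (Ftl1 and Apoe, S100a8 and S100a9), 3 and 1 by DESeq2 (RT1-T24-4, Gpnmb and Rbm38, S100a9), where 1783 genes had no adjusted p, 136 and 64 with the locus-named globins kept in, 3 and 15 of 483 genes with 90% globin, and 1 and 2 of 112 genes (AY172581.24, S100a8 and S100a9) at a globin share of 50%. Among named genes called in all erythroid cells, some log2 folds turned at that share. These were Ahsp -0.43, Car2 -0.71, Bpgm -0.062, Ybx3 -0.89, Cd52 -0.95, Alas2 -1.18, Gpx1 -0.25, Ubb -0.35, Lgals5 -0.58, Bnip3l -0.85, Prdx2 -0.55 and Gabarapl2 -0.86. Of the called genes, only Ubb turned with 90% globin, at -0.017. Genes that were not called could turn as well. Of 44 listed erythroid genes, 41 were above 0 in all cells and 30 with 90% globin. The cause was not tested. Of 87 named genes, the call was lost, with the direction kept, for 19 by library size and 35 without the filter, for 23 of the 36 with an adjusted p by DESeq2, for 26 of the 60 tested with 90% globin and for 7 of the 27 tested at a globin share of 50%. Leaving out a library was not run as a test, since without sham 1 no sham library remains and without a severe one no residual degrees of freedom do. No paired analysis was possible because sham and severe shared only replicate number 1. Counting error limits severe 1 most, where 3 UMIs equal 123 CPM.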

Other observations

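Some genes outside the lists that were higher in erythroid than in other cells were picked after their values were seen and are given as values only, in CPM of non-globin UMIs for sham 1, severe 1 and severe 2. Isca1, a scaffold of iron-sulfur cluster assembly in mitochondria, had 2345, 7316 and 6417 CPM against 58.6, 71.9 and 86.8 in other cells, and Glrx5, a glutaredoxin of the same machinery, had 1027, 6247 and 5402 against 69.6, 120.1 and 104. Slc25a39, a mitochondrial carrier, had 2077, 8631 and 10249.5 against 84.1, 137 and 204. Ncoa4, the receptor that sends ferritin to autophagy, had 1517.5, 4479.9 and 2375 against 57.2, 73.1 and 52.5, and Mkrn1, a ubiquitin ligase, 1939, 8138 and 5438 against 48.2, 38.9 and 26.9. All 5 were above 1000 CPM in each library, and under 210 CPM in the other cells. Per cell, Glrx5 had slightly fewer UMIs in erythroid than in other cells of severe 1.

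Values of further genes, called higher or lower and also picked after being seen, are given here; Isg20 was in the lists. B2m, the light chain of class I molecules, had 9105, 9083 and 7136 CPM against 3442, 3176 and 3291, and RT1-T24-4 had 61.3, 1397 and 1136 against 13.9, 20.9 and 36.0. The class II chain gene RT1-Da had 7.66, 0 and 167 against 106, 867 and 656, and Cd74, the class II invariant chain, 107, 41.1 and 333 against 337, 1131 and 1316, both lower than in other cells. Of interferon-induced genes, Irf7 had 207, 863 and 490.4 CPM against 48.0, 15.1 and 7.96, Isg20 215, 575 and 694 against 27.4, 3.44 and 3.01 and Ifit1 76.6, 123 and 76.9 against 20.7, 0.807 and 0.452, the last from 10, 3 and 40 UMIs. Per cell, B2m had 10.1, 1.96 and 3.71 UMIs in erythroid and 25.3, 37.2 and 50.0 in other cells, fewer in all 3 libraries, and RT1-T24-4, Irf7 and Ifit1 had fewer per erythroid cell in sham 1. No test bears on these values, which come from the cells that the globin share chose.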
